A study of Homo sapiens with 24 samples.

Results

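The histone genes and histone variants on the array were taken by name, as every probe of a gene whose symbol starts with HIST1H, HIST2H, HIST3H, HIST4H, H1F, H2AF or H3F, which gave 100 probes for 82 genes among 34127 probes. Of these, 80 probes (68 genes) belonged to the replication-dependent clusters and 20 probes (14 genes) to the variants. The cells were HCT-116, a human colorectal cancer line, and came from 1 stably transfected clone that carried the Tet repressor and a doxycycline-inducible, FLAG-tagged dominant negative Tcf4 (DN-Tcf4), a form of the factor that represses Wnt transcriptional activity. The clone had been chosen by the fall of its Wnt reporter activity under doxycycline and by its DN-Tcf4 protein on western blot. The values therefore describe that clone, and every group carried both constructs. The paper reports minimal DN-Tcf4 protein with doxycycline alone and high levels with both agents. The 4 treatments were Ctl (neither agent), NaB (5 mM sodium butyrate, a histone deacetylase inhibitor), Doxy (4 µg/ml doxycycline) and DoxyNaB (both agents), in 6 biological replicates each, here experiments 1 to 6, with 1 single-colour array each. The labels give 17.5 hr of treatment, while the study's methods give that time for the butyrate step and put doxycycline before it. The question put to these arrays was which butyrate responses differ when Wnt activity is repressed.

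Histones are the proteins around which DNA is wound, with H2A, H2B, H3 and H4 in the nucleosome core and H1 on the linker between cores. Most of them are made from clustered, intronless genes that are copied in S phase, and those mRNAs end in a conserved stem-loop in place of a poly(A) tail. Variants such as H1F0, H2AFZ and H3F3A lie outside the clusters, are usually made as polyadenylated mRNAs through the cell cycle, and replace the S phase histones at particular places or times. Butyrate blocks the removal of acetyl groups from histone tails, and raised H1F0 in arrested or differentiating cells is a classical response to it.

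A level is given throughout as log2 of the spot's signal relative to the 75th percentile of its own array, so 0 is the level of that percentile and levels of different probes are not compared. A change is the difference of such levels between treatments of the same experiment, estimated with limma over all 24 arrays with the experiment as a block, and a probe was called when its change was over 2-fold with an adjusted p (Benjamini-Hochberg over 18980 probes) under 0.01. Probes entered the test if some treatment had them well above background in each of its 6 arrays. That held for 81 histone probes (67 genes), 66 probes of the clusters and 15 of the variants, and 69 of the 81 stood well above background on all 24 arrays. The other 19 probes were well above background on 0 to 17 arrays and were not tested, among them those of the H1 genes HIST1H1A, HIST1H1B and HIST1H1T, the oocyte linker histone H1FOO, the H2A variants H2AFB2 and H2AFB3, and HIST4H4. No histone spot was saturated.

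The 75th percentile signal ran from 380 to 1323 over the 24 arrays, and the probes well above background made up 78.4% to 88.1% on the arrays of experiments 2 to 4 and 52.7% to 62.6% on those of experiments 1, 5 and 6. Experiments 2 to 6 each lay on 1 slide. Experiment 1 lay on 2 slides, with Ctl and Doxy on one and NaB and DoxyNaB on the other, so within it slide and butyrate cannot be told apart. Negative control spots read highest on the NaB array of experiment 3 (161) and the DoxyNaB array of experiment 2 (248.9), against a lowest mean of 48.4. Leaving out both arrays left 49 cluster probes higher and 5 lower in NaB/Ctl. Within every experiment the negative controls read higher with butyrate than without it, both with and without doxycycline. The gap was wide in experiment 4 (NaB 112.1, Ctl 63.1) and small in experiment 6 (NaB 48.8, Ctl 48.4). Its part in the changes of dim probes was not tested. Experiment 1 stood apart from the others in the level of many histone probes, and without it 51 cluster probes were higher and 4 lower in NaB/Ctl and 48 and 4 in DoxyNaB/Doxy. All 6 epithelial marker genes, such as EPCAM and KRT18, were well above background on all 24 arrays. Of 10 marker genes of blood, endothelial and connective tissue cells, COL1A1 and ACTA2 were too, COL3A1 was so on none, and the part of such signal in the histone values was not tested. The TCF7L2 probe that rose most under DoxyNaB lay between -0.60 and 1.63 there and between -4.85 and -2.61 under NaB, a change of 4.46 (adjusted p = 1.77e-06), while another TCF7L2 probe fell by 1.25 on the log2 scale. Under doxycycline alone the same probe did not pass the test (Doxy/Ctl 0.30, adjusted p = 0.861), so DN-Tcf4 mRNA was not detectably raised there by this probe.

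Some of the results below turn on where a probe lies in its mRNA, since cluster genes of 1 type are close copies of each other. Of the 8 tested H4 probes that span the end of the coding region, 6 are shown in 30-base windows, with the last codons and the stop codon in capitals (a fixed pattern of the last codons that ends in TGA or TAA), because these probes did not all move the same way.
HIST1H4B: tctgtacggcTTCGGCGGTTAAtcttttcg
HIST1H4C: tgtatggcTTCGGCGGCTGAatctaagaat
HIST1H4D: ttatggcTTCGGCGGCTGAgcttacctcta
HIST1H4L: cctgtatggcTTTGGCGGCTGAgtgtttta
HIST1H4J: cctctacggtTTCGGTGGTTGAgcgtccct
HIST1H4E: cTTCGGCGGCTAAtgctaccgcttaaacga

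Butyrate alone raised most of the measured cluster genes (NaB/Ctl). Of the 66 tested cluster probes, 49 were higher, 4 were lower and 13 were not called, where 20.7% of all 18980 probes were called higher and 11% lower. The median change of the cluster probes was 2.14, with a range of -1.73 to 4.80, beside a median of 0.17 over all probes tested. With the normexp background correction these 2 medians were 1.61 and 0.07, and with arrays scaled to their median 1.39 and -0.58. Under normexp 1598 of all probes were higher and 1403 lower, and of the cluster probes 41 and 4. The share over all probes turned with the scaling, at 1641 higher and 6129 lower with arrays scaled to their median and 2462 and 3165 with quantile normalization, where 41 and 46 cluster probes were higher and 5 lower in each. Among the 56 cluster probes well above background on all 24 arrays, which did not need a high butyrate level to be tested, 40 were higher and 4 lower, and of all 15088 such probes 15.1% were higher and 11.4% lower. The values of the 6 NaB arrays lay wholly above those of the 6 Ctl arrays for 50 of the 66 probes and wholly below for 4, against 24.2% and 18.9% of all probes. The plot of changes by histone type shows every H2B probe above the 2-fold line and the H4 probes in groups above and below 0.

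**Figure D1:**
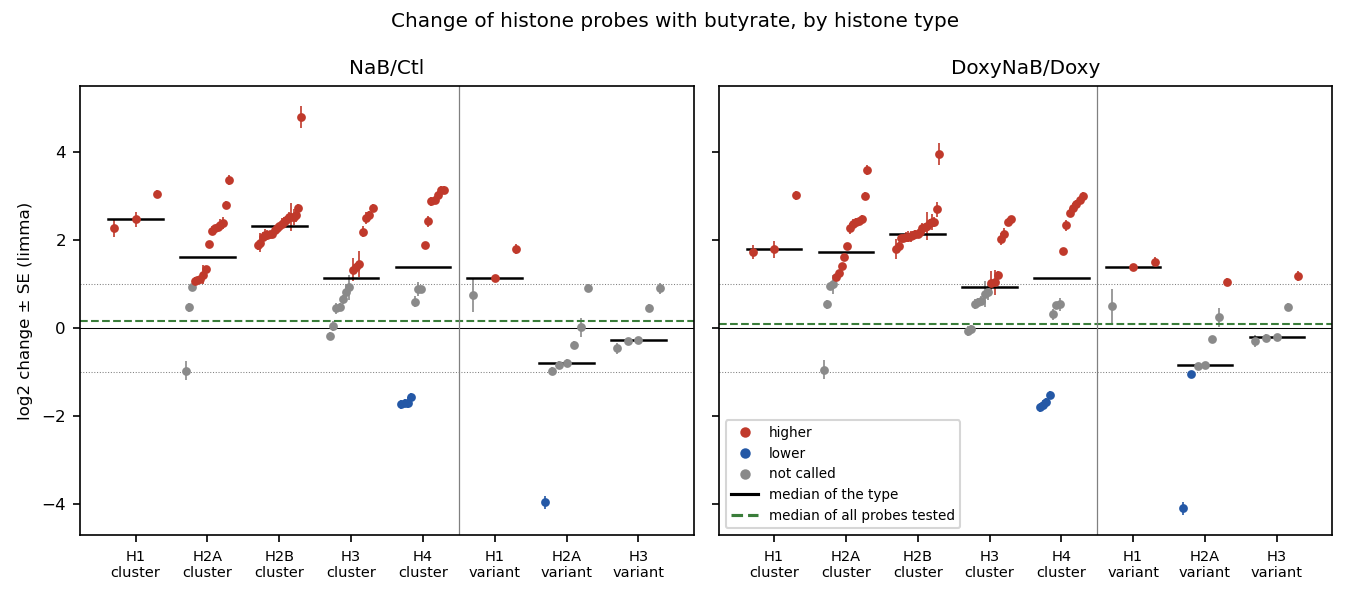
Change of each tested histone probe in NaB/Ctl and in DoxyNaB/Doxy (vertical axis, log2), grouped by histone type for the cluster genes and for the variants, 1 point a probe with its SE from limma, coloured by its call, with dotted lines at 2-fold, a black line at each type's median and a dashed line at the median of all probes tested. H2B probes in NaB/Ctl lie between 1.89 and 4.80, H4 probes between -1.73 and 3.15.

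The linker histone genes of the clusters, whose proteins bind the DNA between nucleosomes, rose with all 3 tested probes (median 2.48). HIST1H1C lay at 0.50, 0.74 and 1.48 (lowest, median and highest of 6) in Ctl and at 3.57, 3.70 and 5.02 in NaB. The groups did not overlap, and the highest array of each was that of experiment 1. Its change was 3.05 ± 0.10 (SE, n = 6 pairs), or 8.29-fold (limma, adjusted p = 1.49e-14). HIST1H1D went from -3.49, -3.10 and -2.29 to -1.04, -0.61 and 0.51, a change of 2.48 ± 0.16 (limma, adjusted p = 1.77e-10, n = 6). HIST1H1E rose by 2.27 ± 0.19 (limma, adjusted p = 5.75e-09, n = 6), again with no overlap between its groups.

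Of the H2A genes, whose protein pairs with H2B in the nucleosome, 13 of 16 probes rose and 3 were not called (median 1.63). HIST2H2AA4, which has a near-identical copy in the chromosome 1 cluster so that its signal cannot be given to one copy, lay between -1.12 and -0.46 in Ctl and between 2.15 and 3.49 in NaB. Every NaB array was above every Ctl array, with a change of 3.37 ± 0.11, or 10.4-fold (limma, adjusted p = 1.84e-14, n = 6). HIST1H2AD rose by 2.80 and HIST1H2AC by 2.31, the latter with 3 probes between 2.27 and 2.36. The smallest calls were those of HIST3H2A (1.08), HIST1H2AB (1.09) and HIST1H2AH (1.11). HIST1H2AB overlapped between groups, because its Ctl array of experiment 1 (-0.18) lay above the lowest NaB array (-0.20), although it was higher within all 6 experiments. HIST2H2AC, named after its values were seen, had a change of -0.97 (limma, adjusted p = 0.000508) and was under 2-fold.

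All 19 tested H2B probes rose, for 15 genes, with a median of 2.32. Of these, 15 were well above background on all 24 arrays, and the other 4 (1 of HIST2H2BE, 2 of HIST2H2BF and 1 of HIST3H2BB) entered the test only through a treatment with butyrate, so that a rise was built into their being tested. HIST1H2BJ lay at -1.85, -1.63 and -1.37 in Ctl and 0.95, 0.98 and 1.42 in NaB. These groups were far apart, with a change of 2.73 ± 0.10, or 6.65-fold (limma, adjusted p = 6.04e-14, n = 6). HIST1H2BC (2.59) and HIST2H2BE (2.52) followed, and the lowest were HIST3H2BB (1.95), HIST1H2BK (2.08) and HIST1H2BG (2.13). The other HIST2H2BE probe gave the upper end of the range, 4.80, but was well above background on only 4 of 6 Ctl arrays and gave 2.36 with the normexp background correction.

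The H3 genes were mixed, with 7 of 14 probes higher, none lower and a median of 1.13. A signal well above background was reached on all 24 arrays by 10 of the 14. HIST1H3F, HIST1H3I and HIST1H3J, all called higher, reached it on only 5, 5 and 4 of 6 Ctl arrays. They reached it on all 6 Doxy arrays, so their entry to the test did not need butyrate. HIST2H3A, which was not called, entered only through DoxyNaB. HIST1H3H lay between -3.10 and -2.28 in Ctl and between -0.39 and 0.32 in NaB, with no overlap and a change of 2.59 ± 0.08 (limma, adjusted p = 1.57e-14, n = 6). HIST1H3F (2.51) and HIST1H3B (2.20) rose nearly as far, while HIST1H3I (1.33), HIST1H3D (1.38) and HIST1H3J (1.47) rose least. Among the 7 not called, HIST1H3A had a change of -0.18 (adjusted p = 0.0765) and HIST1H3E of 0.05 (adjusted p = 0.718), both named after their values were seen. HIST1H3E lay between -0.87 and 0.38 in Ctl and between -0.87 and 0.12 in NaB, so its groups overlapped almost entirely.

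The H4 genes, whose coding sequences give 1 and the same protein, moved in both directions, with 7 of 14 probes higher, 4 lower and 3 not called. HIST1H4C lay at 6.60, 6.69 and 7.34 in Ctl and at 4.85, 5.03 and 5.52 in NaB. Here the Ctl arrays were the high ones and did not overlap the NaB arrays, with a change of -1.69 ± 0.12, or 3.23-fold lower (limma, adjusted p = 3.22e-10, n = 6). HIST1H4L (-1.73) and HIST1H4B (-1.71) fell as far, each lower in 6 of 6 experiments. At the other end HIST2H4B went from between -2.30 and -1.02 to between 1.17 and 2.17, a rise of 3.14, HIST1H4H rose by 3.03 and HIST1H4F by 2.92. HIST2H4B has a near-identical copy, HIST2H4A, whose own probe was well above background on none of the 24 arrays.

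**Figure D2:**
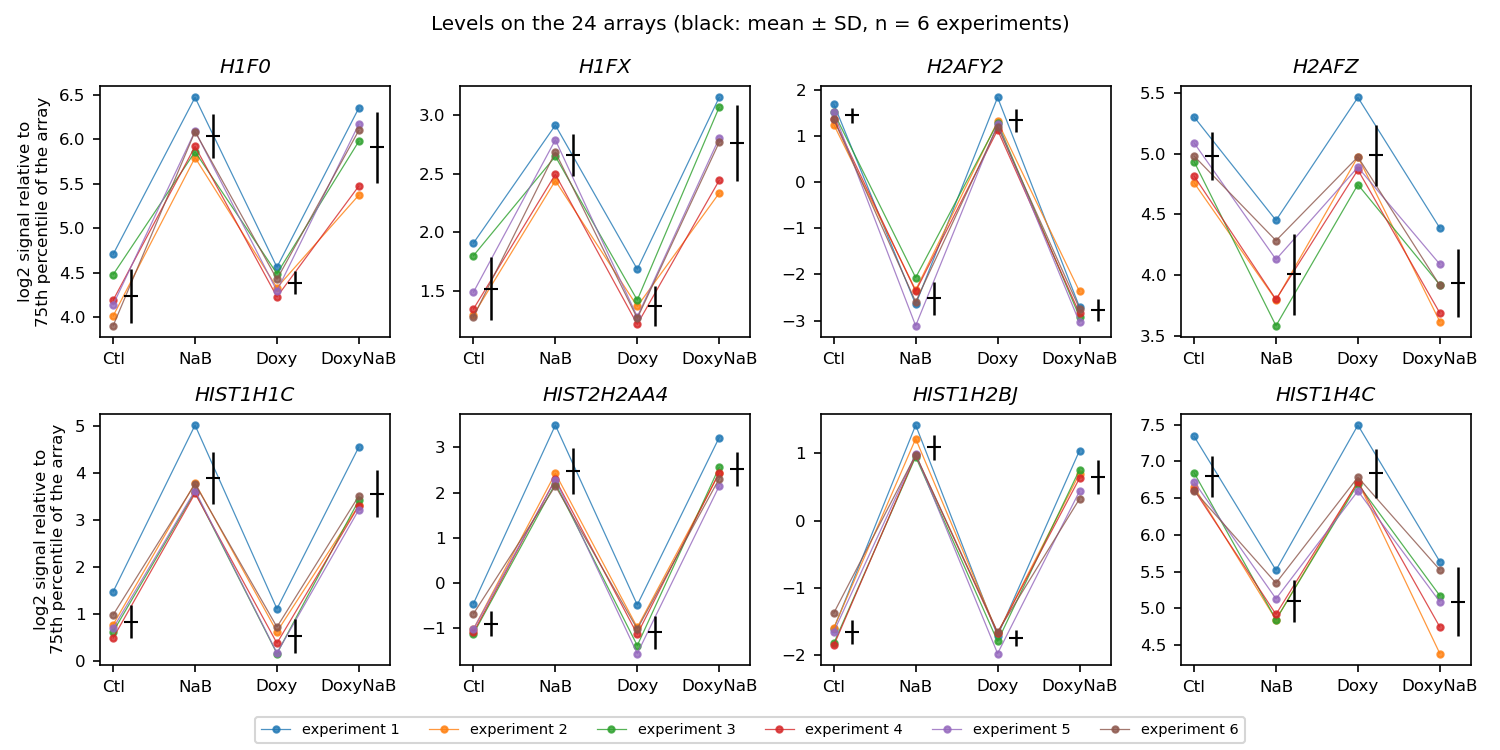
Level of 8 histone probes in each of the 24 arrays (vertical axis, log2 relative to the array's 75th percentile), by treatment, with 1 coloured line an experiment and the mean ± SD of each treatment in black (n = 6). H1F0 and HIST1H1C are higher in both butyrate treatments, and H2AFY2 and HIST1H4C are lower.

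For HIST1H4D the direction differed between probes of the one gene. It had 2 probes of 60 bases on the minus strand of chromosome 6 (NCBI36), at chr6:26296980-26297039 in the coding region and at chr6:26296931-26296990 across its end, which share 11 bases, shown in capitals in the whole of the first probe and the start of the second.
HIST1H4D coding: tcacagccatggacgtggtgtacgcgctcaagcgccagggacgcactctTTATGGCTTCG
HIST1H4D end: TTATGGCTTCGgcggctgagcttacctcta
The coding probe lay between -2.27 and -1.67 in Ctl and between 0.95 and 1.81 in NaB, a rise of 3.15 (limma, adjusted p = 2.11e-15). The probe across the end lay between 0.35 and 0.88 in Ctl and between -1.59 and -0.44 in NaB, a fall of 1.56 on the log2 scale (limma, adjusted p = 1.28e-11). Neither probe overlapped between treatments, and both moved the same way in all 6 experiments. The 8 tested H4 probes that hold the end of the coding region ranged from -1.73 to 2.43 with a median of -0.48, and the 6 that do not ranged from 1.90 to 3.15 with a median of 2.97. Of the 8, HIST1H4E rose (2.43) and the 4 of HIST1H4B, HIST1H4C, HIST1H4D and HIST1H4L fell. HIST1H4A (0.61), HIST1H4K (0.89) and HIST1H4J (0.90) were under 2-fold. The HIST1H4E probe was well above background on 22 arrays, and the other 13 tested H4 probes on all 24. The grouping by the end of the coding region was made after the values were seen and carries no test. Whether the probes differ by the transcript form they detect or by hybridisation of other H4 mRNAs was not tested.

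**Figure D3:**
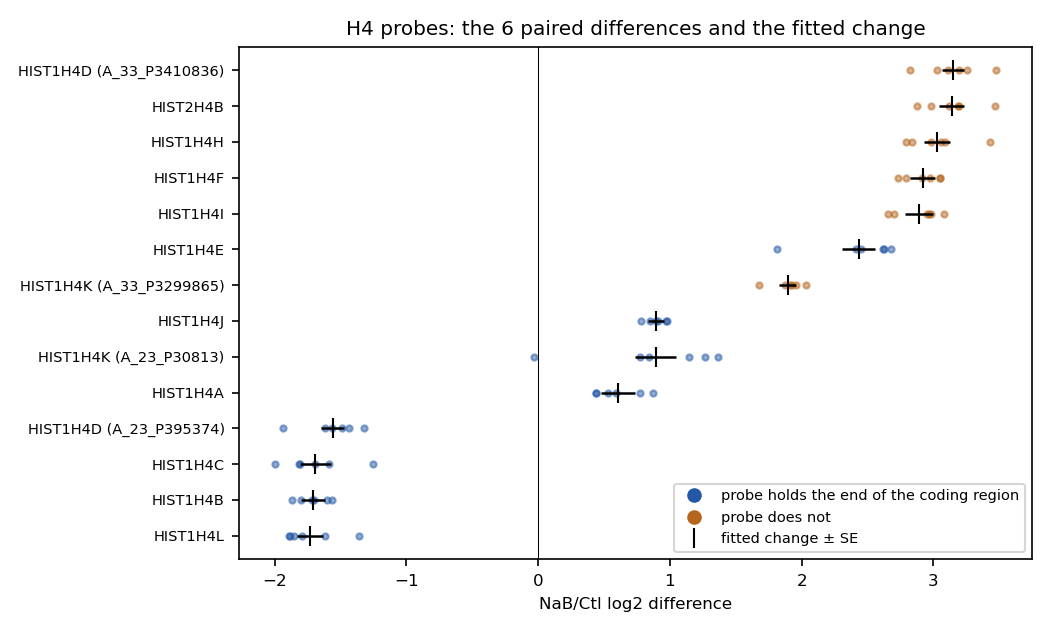
Change of each tested H4 probe in NaB/Ctl (horizontal axis, log2), with the 6 paired differences as points and the fitted change ± SE in black, coloured by whether the probe holds the end of the coding region. The 2 HIST1H4D probes stand at 3.15 and -1.56.

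Probes of other genes were closer to each other. Over 11 genes with 2 or more tested probes there were 17 probe pairs, of which 14 differed by at most 0.5 in NaB/Ctl and 3 by over 1 (HIST1H4D, HIST1H4K and HIST2H2BE). Between different genes, 39 pairs of tested probes shared a run of 16 or more bases, up to 37 bases for HIST1H4J and HIST1H4K, so signal from a sister gene cannot be told apart there. The stem-loop that ends cluster mRNAs was looked for in the probes, by its loop TTTTN between the arms GGCNC and AGNGCC, and stood in 6 of the 100 histone probes against 7 of all 34127 (0.0205%). It is shown in capitals for 2 of them, since it marks probes that reach the processed 3′ end of the mRNA.
HIST1H3H: acccaaaGGCTCTTTTCAGAGCCaccca
HIST1H4K: aacaaaaGGCCCTTTTTAGGGCCcc
The HIST1H3H probe with the stem-loop rose by 2.74, beside 2.59 for the gene's other probe, and the HIST1H4K probe with it had a change of 0.89, beside 1.90 for the other. The other tested probes with the stem-loop were those of HIST1H2AI (1.22) and HIST2H3A (0.93). The primer used to make the labelled cRNA is not given in the sources used here, so the share of each mRNA form that was labelled is not known.

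Most tested probes of the HIST1 and HIST2 clusters rose. On chromosome 6 the HIST1 genes lie in 2 blocks, and 22 of 30 probes rose and 3 fell in the first (27 genes, chr6:26128860-26393535, NCBI36), with a median of 2.24. In the second (18 genes, chr6:27208297-27969626) 17 of 22 rose and 1 fell, with a median of 1.90. The clusters on chromosome 1 had 8 of 11 probes higher for HIST2 and 2 of 3 for HIST3, with none lower. These counts include the probes of HIST2H2BE, HIST2H2BF and HIST3H2BB that entered the test only through butyrate. A rise was thus built into part of them, and HIST3 had few other probes. Rises and falls were interleaved along the chromosome, as the plot of change by position shows.

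**Figure D4:**
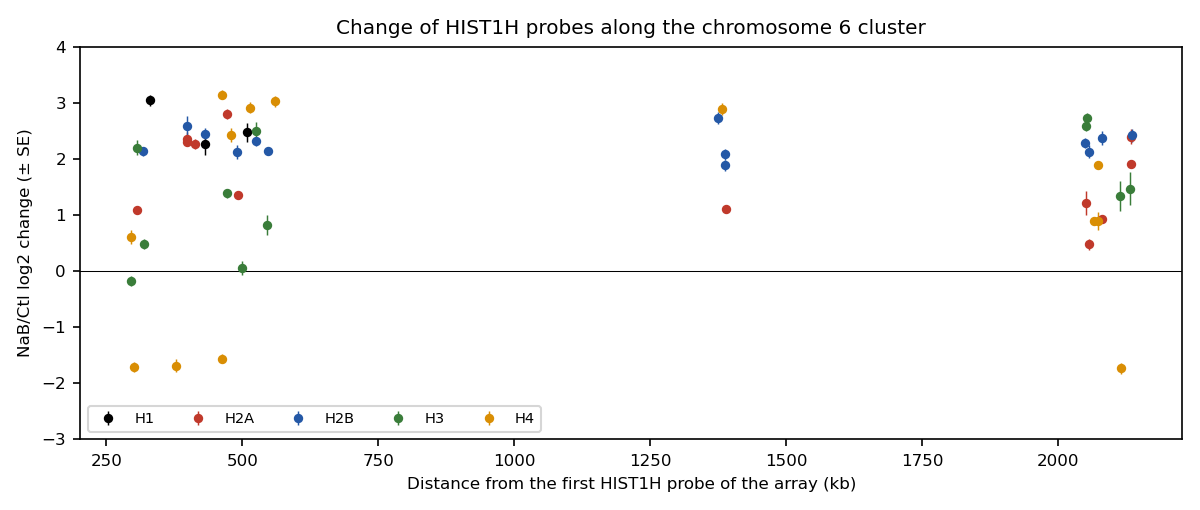
Change in NaB/Ctl (vertical axis, log2 ± SE) of the tested HIST1H probes by distance along the chromosome 6 cluster (horizontal axis, kb), coloured by histone type. The 4 probes that fell are all of H4 genes and lie among probes that rose.

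The promoters of 3 genes that rose, 2 of H1 and 1 of H2B, are shown because they hold the motifs of their type. Sequences and starts are those of RefSeq (GRCh38.p14), 75 of the 82 genes matched, and the window searched on both strands was 250 bases before to 50 after the start. The motifs were CCAAT and TATAAA, with the octamer ATTTGCAT of H2A and H2B promoters and AAACACA of H1 promoters, each in capitals where it or its reverse complement stands. TATAAA and its reverse complement can share letters, and are then counted once for the promoter.
HIST1H1C, chr6:26056471-26056720, minus strand: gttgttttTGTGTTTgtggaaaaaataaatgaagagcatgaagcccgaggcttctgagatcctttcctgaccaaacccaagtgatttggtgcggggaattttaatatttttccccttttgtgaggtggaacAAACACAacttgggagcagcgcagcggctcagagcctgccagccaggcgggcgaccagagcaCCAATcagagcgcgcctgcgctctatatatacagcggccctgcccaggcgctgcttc
HIST1H1E, chr6:26156079-26156328, plus strand: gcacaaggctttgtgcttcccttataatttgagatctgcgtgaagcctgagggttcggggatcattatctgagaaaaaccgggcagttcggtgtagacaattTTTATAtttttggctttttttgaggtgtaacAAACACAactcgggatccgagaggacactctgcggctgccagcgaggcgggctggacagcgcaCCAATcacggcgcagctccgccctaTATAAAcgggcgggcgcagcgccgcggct
HIST2H2BE, chr1:149886683-149886932, minus strand: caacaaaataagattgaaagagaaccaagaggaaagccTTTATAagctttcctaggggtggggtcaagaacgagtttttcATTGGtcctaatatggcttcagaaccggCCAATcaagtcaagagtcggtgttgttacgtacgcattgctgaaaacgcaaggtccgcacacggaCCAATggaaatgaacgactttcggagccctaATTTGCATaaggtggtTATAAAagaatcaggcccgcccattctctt
All 6 H1 cluster promoters held AAACACA and CCAAT, where 5.76% and 35.7% of all 27305 promoters did. The octamer stood in 14 of 18 H2B and 10 of 14 H2A promoters, 1 of 11 H3 and 0 of 13 H4, against 1.80% of all. CCAAT stood in all 18 H2B, all 14 H2A and all 11 H3 promoters but in 3 of 13 of H4, and in 10 of 13 variant promoters. TATAAA stood in 64.5% of the 62 cluster promoters against 11.95% of all and in 4 of 13 variant promoters. These are matches of letters, and no binding was measured.

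Among the variants, apart from H2AFY2, the changes were mostly smaller than in the clusters, and they ran both ways. Of 15 tested probes, 2 were higher (H1F0 and H1FX), 1 lower (H2AFY2) and 12 not called in NaB/Ctl. Over all probes 20.7% were called higher and 11% lower. The median of the 15 variant probes was -0.28. With no fold threshold, 5 were higher and 8 lower at an adjusted p under 0.01, where 40.0% and 28.2% of all probes were. The directions of the small changes depend on the scaling: the median of all probes was 0.17 here, -0.09 after quantile normalization and -0.58 when arrays were scaled to their median, and under the last 1 variant probe was called higher and 8 lower.

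H1F0, the linker histone of arrested and differentiated cells, lay at 3.91, 4.17 and 4.71 in Ctl and at 5.79, 6.00 and 6.47 in NaB. All 6 NaB arrays were above all 6 Ctl arrays, with a change of 1.80 ± 0.11, or 3.47-fold (limma, adjusted p = 8.46e-11, n = 6), and 1.05 when arrays were scaled to their median. H1FX, another linker histone variant, rose from between 1.28 and 1.91 to between 2.44 and 2.91, a change of 1.14 ± 0.08 (limma, adjusted p = 4.66e-10, n = 6). The testis linker histone H1FNT was dim and spread widely, from -5.00 to -1.43 in Ctl and from -4.59 to -0.83 in NaB, and its change of 0.76 did not pass (adjusted p = 0.0889).

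H2AFY2, which encodes macroH2A2, an H2A variant with a large added domain found in silent chromatin, changed most of the variants. It lay at 1.24, 1.44 and 1.69 in Ctl and at -3.11, -2.48 and -2.07 in NaB. The arrays of NaB were all low and far from Ctl, with a change of -3.96 ± 0.14, or 15.6-fold lower (limma, adjusted p = 4.64e-14, n = 6). The related H2AFY (macroH2A1) had a change of -0.83, H2AFZ, the H2A variant of promoters, of -0.98, and H2AFX, whose protein is phosphorylated at DNA breaks, of -0.79. These 3 were under 2-fold but lower in 6 of 6 experiments with no overlap of groups, at adjusted p between 5.43e-09 and 5.17e-08. H2AFV, a close relative of H2AFZ, had a change of -0.37 with one probe (adjusted p = 0.000343) and of 0.02 with a dimmer one (adjusted p = 0.939), whose sign turned under several settings. H2AFJ had a change of 0.92, higher in 6 of 6 experiments and under 2-fold.

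H3F3A and H3F3B encode the same protein, H3.3, which replaces H3 outside S phase, and their mRNAs moved apart. The 3 H3F3A probes had changes of -0.28, -0.29 and -0.46, at adjusted p of 0.00208, 0.000854 and 0.00469. The 2 H3F3B probes had changes of 0.47 and 0.91, at adjusted p of 5.44e-05 and 2.43e-06, higher in 6 of 6 experiments, and the first turned to -0.28 when arrays were scaled to their median. All 5 were under 2-fold.

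With doxycycline present (DoxyNaB/Doxy), butyrate gave nearly the same picture. Of the cluster probes, 48 were higher, 4 lower and 14 not called, where 18.3% of all probes were called higher and 12.3% lower, and the median was 2.06 beside 0.10 over all probes. By type, 3 of 3 H1, 12 of 16 H2A, 19 of 19 H2B, 7 of 14 H3 and 7 of 14 H4 probes rose, and 4 of H4 fell. The H2B count again includes the probes that entered the test only through a treatment with butyrate. Of the variants 4 were higher, 2 lower and 9 not called, and with arrays scaled to their median 0 were higher and 4 lower. Over the 81 histone probes the changes in NaB/Ctl and in DoxyNaB/Doxy, which share no arrays, correlated with r = 0.990, beside 0.967 over all 18980 probes. Probes are not independent, and the same experiments underlie both.

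**Figure D5:**
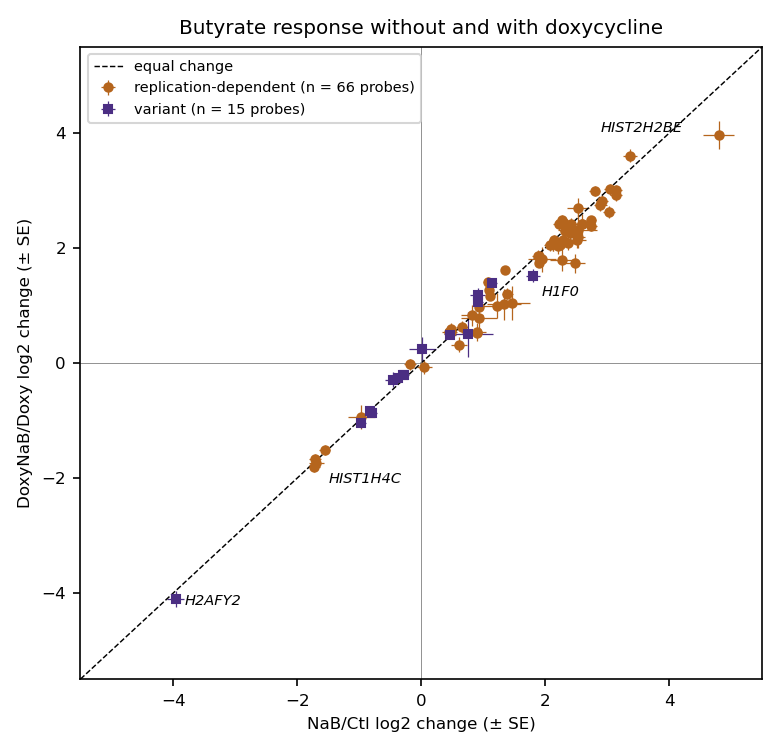
Change of each of the 81 tested histone probes with butyrate alone (NaB/Ctl, horizontal axis, log2) against butyrate with doxycycline (DoxyNaB/Doxy, vertical axis, log2), with SE bars and the line of equal change. Points lie near the line, with a median absolute difference of 0.15 and a largest of 0.83.

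H1F0 lay at 4.23, 4.38 and 4.56 in Doxy and at 5.37, 6.04 and 6.35 in DoxyNaB, with no overlap, a change of 1.52 or 2.86-fold (limma, adjusted p = 8.73e-10, n = 6). HIST1H1C rose by 3.03, HIST2H2AA4 by 3.61, HIST1H2BJ by 2.39 and HIST1H3H by 2.42. HIST1H4C fell by 1.74 on the log2 scale and H2AFY2 by 4.10, or 17.2-fold. The 2 HIST1H4D probes again went apart, by 3.02 and -1.52. The call was the same in both comparisons for 77 of the 81 probes, which were 50 higher, 5 lower and 22 not called. The other 4, named after their values were seen, lay close to the 2-fold line: HIST1H2AI (1.22 and then 1.00), H2AFJ (0.92 and 1.05), H2AFZ (-0.98 and -1.05) and 1 probe of H3F3B (0.91 and 1.19). The difference between the responses of these 4 did not pass its test, with adjusted p between 0.586 and 0.866.

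Doxycycline itself moved the histone genes little. Without butyrate the paper reports minimal DN-Tcf4 protein, so Doxy/Ctl is not a test of high DN-Tcf4. In Doxy/Ctl limma called 0 of 81 histone probes, where 0.0948% of all probes were called, and the methods' paired t-test called 0 as well. Their changes ran from -0.32 to 0.54, 8 of 81 had an unadjusted p under 0.05 beside 2401 of all 18980 probes, and the lowest adjusted p was 0.0646 for HIST3H2A (-0.30). In DoxyNaB/NaB, which shares its arrays with the comparisons above, 0 were called by limma or by the methods' t-test, where 0.374% of all were, and 20 of 81 had an unadjusted p under 0.05 beside 2908 of all 18980. With no fold threshold 3 passed an adjusted p under 0.01, all H4 genes and all lower, where 1.87% of all probes were lower at that threshold. These were HIST1H4J (-0.45 ± 0.06, adjusted p = 0.000137), HIST1H4K (-0.31 ± 0.06, adjusted p = 0.00667) and HIST1H4H (-0.46 ± 0.10, adjusted p = 0.00927), each lower in 6 of 6 experiments. The other HIST1H4K probe, with the stem-loop, did not pass. The HIST1H4K and HIST1H4H probes that passed share a run of 26 bases, so their signals may not be separate. HIST1H4J lay between -0.49 and 0.11 in NaB and between -0.95 and -0.50 in DoxyNaB, so its groups did not overlap, though only narrowly. Over the 66 cluster probes the DoxyNaB/NaB median was -0.13, beside -0.03 over all probes. It was small but below 0 in each experiment, from -0.29 to -0.02. By type the median was -0.34 for H1, -0.15 for H2B, -0.10 for H3 and -0.19 for H4, but 0.02 for H2A.

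The test of the difference itself, NaB/Ctl minus DoxyNaB/Doxy, called 0 histone probes in limma, where 1.24% of all probes were called, and 9 of 81 had an unadjusted p under 0.05 beside 2285 of all 18980. The lowest adjusted p was that of HIST1H4J, 0.0283, whose rise was 0.37 ± 0.09 larger with butyrate alone (0.90 against 0.53). With the methods' t-test and no adjustment 2 passed, HIST1H4J and HIST1H2BJ (0.34), and after Benjamini-Hochberg adjustment 0 did. A missed threshold does not show that the responses were equal.

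No gene of histone mRNA synthesis was called higher. Of 28 tested genes of histone mRNA synthesis and 3′ processing, 0 were higher and 7 lower in NaB/Ctl, with a median of -0.59, and 0 and 4 in DoxyNaB/Doxy, with a median of -0.46. Over all probes 20.7% were called higher and 11% lower in NaB/Ctl, and 18.3% higher and 12.3% lower in DoxyNaB/Doxy. The lowest were E2F1 (-1.27), a factor that turns on S phase genes, OBFC2B (-1.08) and CCNE2 (-1.07), a cyclin of S phase entry. Under 2-fold but at an adjusted p under 0.01, 2 more were higher in NaB/Ctl, HINFP (0.69) and POU2F1 (0.48), and 11 lower. In DoxyNaB/Doxy these numbers were 3 and 12. Named after their values were seen, SLBP, which binds the stem-loop, had a change of -0.78 (adjusted p = 2.58e-08) and NPAT, the coactivator of cluster genes, of 0.21 (adjusted p = 0.286). Of 33 genes of histone chaperones and deposition, 1 was higher and 12 lower (median -0.71), and 1 and 11 with doxycycline (median -0.69). OIP5 (-1.85) and HJURP (-1.84), which load the centromeric H3, and ANP32E (-1.70), which removes H2A.Z, fell most, and TSPYL2 rose (1.37).

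Of 26 genes of S phase and proliferation, 0 were higher and 20 lower in NaB/Ctl (median -1.73) and the same numbers in DoxyNaB/Doxy (median -1.53). Over all probes 20.7% were higher and 11% lower in NaB/Ctl, and 18.3% and 12.3% in DoxyNaB/Doxy. TYMS, which makes thymidylate for DNA synthesis, fell by 3.36 on the log2 scale, E2F8 by 3.21 and CCNA2, the cyclin of S phase, by 2.62. Not called in NaB/Ctl were MCM6 (-0.93), PCNA (-0.86), CDC6 (-0.45), RRM2 (-0.11), TK1 (0.13) and CDKN1A (0.57). The cluster histone probes and the S phase genes thus had medians of opposite sign on the same arrays. In such bulk RNA, fewer cells in S phase and less RNA per cell cannot be told apart. In Doxy/Ctl, DoxyNaB/NaB and the test of the difference, limma called 0 genes of these 3 lists.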

How the data were processed

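RNA of 24 cultures was copied to cDNA, and cRNA made from it was hybridised to single-colour Agilent 60-base oligonucleotide arrays. The deposited intensity values are those of the scanner files, which the authors extracted with Agilent Feature Extraction 9.5.3.1 (background-subtracted processed signal, probe positions in NCBI36). The authors then worked in GeneSpring, and their methods name a paired t-test between treatments. The array number limits the precision.

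From these files, log2 of the processed signal minus that of each array's 75th percentile over non-control spots was taken, outlier spots were left out (1 to 3 values in 3 histone probes, HIST1H2AC, HIST1H3G and H3F3A) and spots of a probe averaged. limma 3.58.1 in R 4.3.3 fitted treatment and experiment, with the thresholds given in the report. Experiment numbers pair the samples by design. Of the within-experiment correlations of deviations from treatment means, 35 of 36 were positive, from 0.218 to 0.851. That of NaB and DoxyNaB in experiment 3 was -0.217. Arrays of different experiments were not compared in this way, so these values do not test the pairing. The steps were tested on simulated data. No gene set was tested.

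The genes, lists and rules for naming were chosen with earlier results of these data known. Named were H1F0, every tested variant, per histone type the 3 highest and 3 lowest called cluster genes changed the same way in 6 of 6 experiments, members past the doxycycline tests, the 3 highest and 3 lowest called genes of each list, and the 5 probes most like H1F0. A gene with several probes was represented by its brightest. Alternatives were the background correction, scaling, filters, block, slide, scan, thresholds, the methods' t-test and each experiment left out. Symbols are those of the array design, of which 97 probes matched RefSeq by accession and 3 by an older symbol.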

Additional observations from a re-analysis of the deposited data

Results flagged for a closer look

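Each named histone probe was looked at within each treatment for an array that stood apart from the other 5 (by Dixon's criterion on the gap to the nearest of them, which chance passes in about 1 of 20 groups). This was so in 24 of 216 groups, and in 23 of the 24 the array was that of experiment 1.

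High arrays of experiment 1 were found among the linker histone genes for HIST1H1C in NaB (5.02) and DoxyNaB (4.56), HIST1H1D in NaB (0.51) and HIST1H1E in NaB (2.23) and DoxyNaB (1.85). Among the H2A genes they were found for HIST1H2AB in Ctl (-0.18) and NaB (0.85), HIST1H2AD in NaB (3.99), HIST2H2AA4 in NaB (3.49) and HIST3H2A in NaB (2.72) and DoxyNaB (2.78). Among the H2B genes they were found for HIST1H2BG (1.85) and HIST1H2BK (3.88), both in DoxyNaB.

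For the H4 genes HIST1H4C and HIST1H4L, which fell with butyrate, the high arrays of experiment 1 were those without butyrate, at 7.34 and 5.04 in Ctl and 7.49 and 5.31 in Doxy. HIST2H4B (2.17) and the coding probe of HIST1H4D (1.81), which rose, were high in NaB. Of the variants, H2AFY2 (1.83) and H2AFZ (5.47) were high in Doxy, and the dimmer H2AFV probe was low in NaB (-4.32) and Doxy (-3.41). The array that stood apart outside experiment 1 was the Ctl array of experiment 5 for HIST1H2BG (-1.38). In experiment 1 slide and butyrate cannot be told apart, and the counts without it stand beside the arrays' description in the report.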

How the results depend on the processing

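Across the alternatives, the cluster counts over all types stayed within 1.5 times those reported, at 40 to 59 higher and 4 to 5 lower in NaB/Ctl and 39 to 57 higher and 4 to 5 lower in DoxyNaB/Doxy. By type, with arrays scaled to their median, the H2A probes called higher in NaB/Ctl went from 13 to 8 and those of H3 from 7 to 4, with an H3 median of 0.38 (0.63 with normexp) in place of 1.13. With no replicate block 48 were higher and 4 lower in NaB/Ctl and 47 and 4 in DoxyNaB/Doxy, where without the pairing HIST1H3I lost its call in both (adjusted p = 0.056 and 0.143). The change of H1F0 lay between 1.72 and 1.88 with each experiment left out and was 1.05 with arrays scaled to their median.

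The variant counts moved more. In NaB/Ctl the probes called higher (2) were 1 with arrays scaled to their median, 4 at a fold over 1.5 and 5 with no fold threshold, and 2 to 3 with an experiment left out. Those called lower (1) were 8 with arrays scaled to their median, 2 in experiments 2 to 4 alone, 4 at a fold over 1.5, 8 with no fold threshold, and 1 to 2 with an experiment left out (2 without experiment 6). In DoxyNaB/Doxy those called higher (4) were 0 with arrays scaled to their median, and those called lower (2) were 4 with normexp, 1 with quantile normalization, 4 with arrays scaled to their median, 1 in experiments 5 and 6, 4 at a fold over 1.5, 5 with no fold threshold and 1 to 2 with an experiment left out (1 without experiment 2). In DoxyNaB/NaB the count with no fold threshold was 3. For the difference of responses it was 2 with the methods' t-test and no adjustment, and 1 at an adjusted p under 0.05.

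Of 2072 alternatives for 110 named changes, 1937 kept direction and side of the threshold, 66 lost the call, 37 gained it and 32 turned in sign, all 32 of them for changes that were not called. With arrays scaled to their median, DoxyNaB/Doxy turned to -0.060 for H1FNT, -0.031 for HIST1H4J and -0.015 for the HIST1H4K probe with the stem-loop, H3F3B to -0.28 in NaB/Ctl and -0.066 in DoxyNaB/Doxy, HIST1H4A to -0.14 and -0.24, and HIST1H3E to -0.70 in NaB/Ctl. With quantile normalization HIST1H4A turned to -0.37 and -0.44, HIST1H3E to -0.057 in NaB/Ctl and HIST1H3A to 0.061 in DoxyNaB/Doxy. H2AFV (the dimmer probe) turned in NaB/Ctl to -0.13 under normexp, -0.73 under quantile normalization as well as median scaling, -0.066 without the 2 arrays of high negative controls, and lay between -0.096 (without experiment 6) and 0.27 (without experiment 1), below 0 also without experiment 3 (-0.023), 4 (-0.036) or 5 (-0.0583). In DoxyNaB/Doxy it turned to -0.32 with quantile normalization, -0.31 with the median and -0.16 in experiments 5 and 6, where H1FNT was -0.17 and HIST1H4A -0.049. HIST1H3A in DoxyNaB/Doxy was 0.00871 without the 2 arrays, and with an experiment left out between -0.092 (experiment 1) and 0.038 (experiment 2), with 0.034 for experiment 6. HIST1H3E in NaB/Ctl was -0.10 in experiments 2 to 4 and, with an experiment left out, between -0.024 (experiment 6) and 0.13 (experiment 4), with -0.020 for experiment 2, and in DoxyNaB/Doxy 0.017 without experiment 6. The cause was not tested. Signal over background limits the dim probes, of which 12 tested histone probes missed that mark on at least 1 array.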

Other observations

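Outside the histone genes, the probes whose levels over the 24 arrays ran most like those of H1F0 were MYO1E (Pearson r = 0.987), C16orf45 (0.987), CITED4 (0.983), TAOK3 (0.982) and RAB40B (0.982), each from 1 probe. All 5 were higher in NaB/Ctl, by 1.18 for MYO1E, a myosin motor, 1.45 for C16orf45, 2.13 for CITED4, a transcriptional coregulator, 1.81 for TAOK3, a kinase, and 2.05 for RAB40B, a small GTPase. Such likeness was common, as 1951 of 18326 probes had an r over 0.9, and the arrays share the treatment effect and the experiments. With the treatment means removed the 5 values of r lay between 0.808 and 0.890. The 5 were chosen by r over these same arrays, and this step leaves in what arrays of 1 experiment share.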
